A study of Mus musculus with 121 samples.

Results

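The regions described here are the 1402 broadest stretches of H3K27 acetylation in a mouse erythroblast line, chosen by 1 rule: a width of at least 5000 bp in the deposited list of H3K27ac regions of untreated cells. They are 6.38% of the 21962 regions of that list and hold 25.6% of its acetylated bases (11.0 of 42.9 Mb). The cells were G1E-ER4, an erythroid progenitor line derived from embryonic stem cells that lacks its own GATA1 and carries an inducible GATA1 fusion. The YY1-AID subline used for most assays carries the auxin-inducible degron on the transcription factor YY1, so that auxin removes YY1. Untreated and auxin-treated cells both carry the tag, and the labels do not say whether the subline is 1 clone.

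H3K27ac is the acetylation of lysine 27 of histone H3, written mainly by the acetyltransferases CBP and p300 and found at active promoters and enhancers. Broad stretches of it usually mark strongly transcribed genes or dense enhancer clusters, which in blood cells often hold many sites of lineage factors. YY1 is a zinc finger protein that binds promoters and enhancers and can dimerise, LDB1 is a non-DNA-binding adaptor that joins GATA1, TAL1 and LMO2 complexes into enhancer contacts, CTCF is an insulator protein, and RAD21 is a subunit of the cohesin ring that extrudes chromatin loops.

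ChIP-seq of asynchronous cells gave 1 list of regions per antibody and condition, from 2 libraries each for H3K27ac, LDB1, CTCF and RAD21, 3 for YY1, and 2 for YY1 with another antibody. Auxin was given for 4 h in ChIP-seq and TT-seq, and for 4, 24 or 48 h in RNA-seq. For the other YY1 antibody and for Micro-C the labels give no time. YY1 was also profiled in samples titled CTCFaid, whose genotype label reads YY1-AID, with 2 untreated libraries and 2 after 4 h of auxin. Lists of YY1 sites by the cell cycle stage at which they appear came from another subline, G1E-ER4 MD-mCherry, arrested with nocodazole for 7 h and released, with 3 libraries per stage. Loops, boundaries and domains came from Micro-C, a contact map at nucleosome resolution, on 5 asynchronous and 4 mid-G1 libraries per treatment. Each list pools its libraries and carries no score, so an interval given with a share below is a 95% Wilson interval that covers counting error only, and no list gives a replicate spread. Shares in broad and other regions are set side by side as a description, with no test over regions. The lists use the mouse build mm9, for which no gene annotation was used here, so the regions are named by position and not by gene.

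The widths fell off without a break at the threshold. The 3 widest regions left out measured 4996, 4997 and 4999 bp, and the 3 narrowest included measured 5002, 5002 and 5004 bp. The median width of the broad regions was 6804 bp, against 1339 bp for the 20560 narrower regions. Of the broad regions 454 were at least 8000 bp wide, 230 at least 10000 bp, 21 at least 20000 bp and 4 at least 30000 bp. The widest, chr3:137602600-137645279, spanned 42680 bp. No gap between neighbouring regions of the untreated list was under 1002 bp, so shorter gaps in acetylation, where there are any, lie inside the listed regions.

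**Figure D1:**
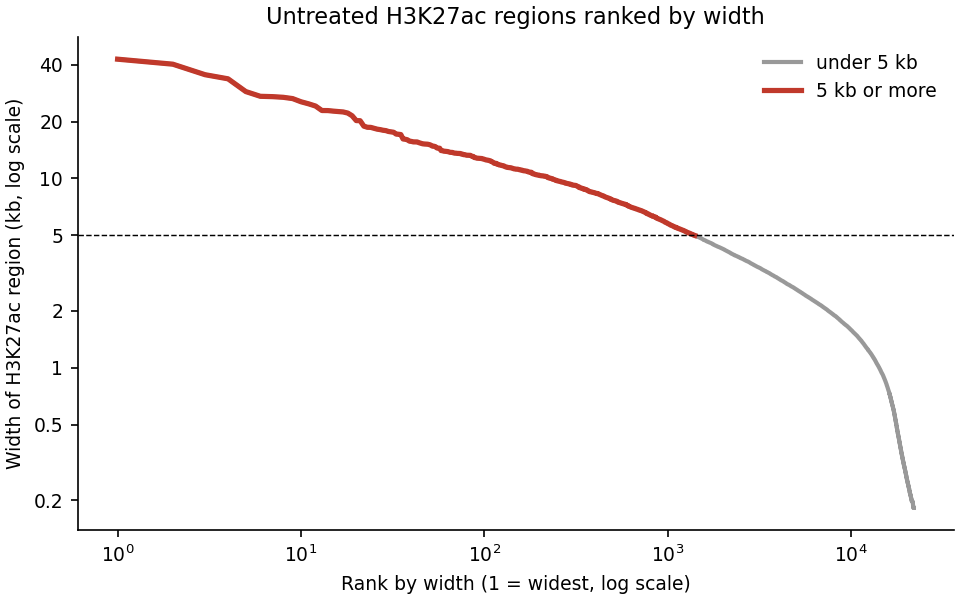
Width of each of the 21962 untreated H3K27ac regions (kb, log scale) against its rank by width (log scale), with the regions of 5 kb or more in red and the threshold as a dashed line. The 1402 selected regions are the upper end of a continuous curve that reaches 42.7 kb.

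Broad regions had other acetylated regions close by. The nearest other H3K27ac region was at a median distance of 3931 bp from a broad region, against 7674 bp from a narrower one, and 75.04% of broad against 56.9% of narrower regions had a neighbour within 10000 bp. Another broad region was that near in 14.2%. Joined at up to 10000 bp, the 1402 regions made 1203 that stood alone, 86 pairs and 9 groups of 3, such as chr12:78153375-78199490, which spans 46116 bp. Chromosome 11 held the most, 157, which was 8.40% of its acetylated regions, and the X chromosome held 27, or 4.41%.

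YY1 was present in nearly all broad regions of untreated cells, and LDB1 and cohesin in about 4 of 5. A YY1 peak overlapped 1395 of the 1402 (99.5%, interval 98.97 to 99.8%), against 66.4% of the narrower regions. RAD21 overlapped 81.7% (79.6 to 83.7%) and LDB1 80.5% (78.3 to 82.4%), against 34.9% and 42.6% of the narrower regions. CTCF overlapped 63.7% (61.1 to 66.2%), against 26.1%, and the other YY1 antibody, whose list was shorter (9164 against 41163 peaks), 68.4% (65.9 to 70.8%), against 27.3%.

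A wide region meets more peaks by its length alone, and per base the order turned. In broad regions there were 3.37 YY1 peak midpoints per 10 kb, against 4.46 in narrower regions, and the densities were 2.06 against 2.64 for LDB1, 1.89 against 2.07 for RAD21 and 1.23 against 1.37 for CTCF. Within the central 200 bp of a region, a window of the same size for all, YY1 was found in 19.8% of broad and 38.1% of narrower regions, LDB1 in 11.8% and 27.8%, RAD21 in 11.0% and 17.3%, and CTCF in 6.92% and 9.30%. The window is not free of width. Its YY1 share was 26.2% under 1000 bp, 52.8% at 1000 to under 2000 bp and 26.2% at 3000 to under 5000 bp. How near the centre of a region lies to its peaks in each width class was not tested. Across the threshold itself the density of LDB1 changed little and those of the other proteins went down. LDB1 stood at 2.03 per 10 kb in regions of 3000 to under 5000 bp, 2.04 at 5000 to under 8000 bp and 2.08 at 8000 bp or more, and YY1 at 3.68, 3.43 and 3.31. The other YY1 antibody stood at 1.72, 1.38 and 1.29, CTCF at 1.40, 1.25 and 1.21, and RAD21 at 1.97, 1.90 and 1.89.

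**Figure D2:**
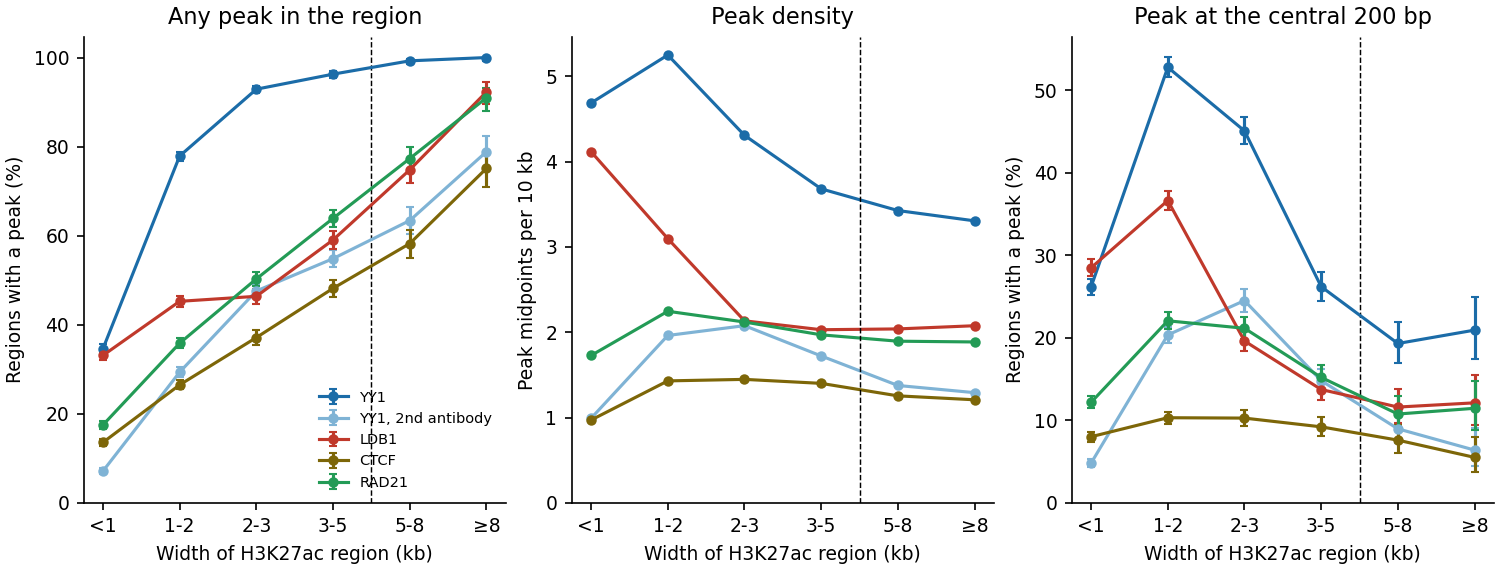
Share of untreated H3K27ac regions with a factor peak (left), peak midpoints per 10 kb of region (middle) and share with a peak in the central 200 bp (right), by region width in kb. Points are values over all regions of a width class, bars are 95% Wilson intervals and the dashed line is the 5 kb threshold; the share with a YY1 peak reaches 99.3% at 5 to 8 kb while its density falls from 5.25 per 10 kb at 1 to 2 kb to 3.31 at 8 kb or more.

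Most broad regions held 3 or 4 of the proteins somewhere along their length, and 538 (38.4%) held 3. All of YY1, LDB1, CTCF and RAD21 had a peak in 634 of them (45.2%), against 19.8% of regions of 3000 to under 5000 bp and 6.16% of all narrower regions. The next most frequent set was YY1 with LDB1 and RAD21 but without CTCF, in 309 broad regions (22.0%). YY1 stood alone in 43, and 2 broad regions held none of the 4. A broad region held a median of 2 YY1 peaks and at most 14, and a median of 1 LDB1 peak and at most 11. Seen from the factors, the broad regions held 8.99% of all YY1 peaks, 12.6% of LDB1, 5.23% of RAD21 and 2.29% of CTCF peaks, and 16.0% of the peaks of the other YY1 antibody.

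The peaks were spread through the interior. Adjacent YY1 peaks of a broad region lay a median of 2215 bp apart (quartiles 1520 and 3130 bp), and adjacent LDB1 peaks 2397 bp. The outer 500 bp on each side made up 12.8% of the bases of broad regions. They held 8.40% of the YY1 peaks, 6.29% of LDB1, 7.13% of RAD21, 11.8% of CTCF and 3.88% of the peaks of the other YY1 antibody.

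Cohesin inside broad regions was found with LDB1 about as often as with CTCF. Of the 2077 RAD21 peaks there, 39.6% (37.5 to 41.7%) overlapped a CTCF peak and 42.7% (40.5 to 44.8%) an LDB1 peak. In narrower regions the shares were 42.6% and 38.3%. Of the 31065 RAD21 peaks outside all H3K27ac regions, 89.5% overlapped CTCF and 2.03% LDB1. LDB1 peaks overlapped RAD21 in 39.4% (37.4 to 41.4%) of cases in broad regions, against 30.0% (29.0 to 31.0%) in narrower ones. A YY1 peak of a broad region overlapped LDB1 in 33.1%, RAD21 in 29.6% and CTCF in 13.7% of cases, against 32.3%, 29.0% and 17.1% in narrower regions. CTCF peaks overlapped YY1 in 36.9% (34.3 to 39.5%) of cases there, against 49.6% (48.1 to 51.1%) in narrower regions.

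Most broad regions had no listed YY1 peak after auxin. The list of YY1 peaks fell from 41163 to 3713 in all, and the peaks in broad regions from 3702 to 414. Of the 1395 broad regions with a YY1 peak midpoint, 1005 (72.0%) had none after auxin and 390 had at least 1. Of the 7 that had none before, 0 had one after. An untreated YY1 peak was found again, here meaning listed in both conditions, in 11.2% (10.2 to 12.2%) of cases in broad regions. The share was 15.1% (14.6 to 15.7%) in narrower regions and 2.32% outside. With the other antibody the shares were 15.9% (14.2 to 17.9%) in broad and 22.9% (21.8 to 24.0%) in narrower regions.

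A broad region with many YY1 peaks kept a smaller share of them. The share found again was 34.0% in the 268 regions with 1 YY1 peak, 15.4% in those with 2, 7.85% in those with 3, 6.20% in those with 4 to 5 and 6.24% in the 61 regions with 6 or more. The share of regions keeping any peak did not follow this order, at 34.0%, 29.5%, 22.4%, 24.0% and 34.4%. The 413 peaks found again were mostly peaks that both antibodies list in untreated cells: 92.0% (89.0 to 94.3%) overlapped an untreated peak of the other antibody, against 22.3% (21.0 to 23.8%) of the 3289 that were not found again. After auxin the antibodies shared fewer of them: 150 of the 413 (36.3%, 31.8 to 41.1%) overlapped an auxin peak of the other antibody, against 1.43% (1.08 to 1.90%) of those not found again. They overlapped LDB1 in 22.5% (18.8 to 26.8%) against 34.5% (32.9 to 36.1%), and CTCF in 21.8% (18.1 to 26.0%) against 12.7% (11.6 to 13.9%). The lists carry no peak height, so the part of peak height in these shares was not tested.

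The other 3 proteins were found again at most of their sites. In broad regions 92.5% (91.0 to 93.8%) of CTCF peaks, 91.1% (89.9 to 92.2%) of LDB1 peaks and 89.5% (88.1 to 90.7%) of RAD21 peaks were listed again after auxin. These were close to the shares in narrower regions, 92.0%, 92.5% and 88.3%. LDB1 peaks that had overlapped YY1 were found again in 93.1% (91.5 to 94.4%) of cases in broad regions, and those without YY1 in 88.7% (86.7 to 90.5%). RAD21 peaks of broad regions were found again in 96.4% (94.8 to 97.4%) of cases with CTCF and 84.9% (82.9 to 86.8%) without.

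RAD21 gained peaks in broad regions. Its peaks there numbered 2077 before and 2725 after auxin, 1.31 times as many. More RAD21 peaks were listed after auxin in 578 broad regions, fewer in 106 and the same number in 718. The same ratio was 1.37 in narrower regions and 1.23 outside, so the longer list was not particular to broad regions, and how many peaks each list reports also depends on its libraries, whose part was not tested. Of the 867 RAD21 peaks of broad regions listed only after auxin, 17.1% (14.7 to 19.7%) overlapped CTCF, against 45.7% (43.5 to 48.02%) of the 1858 listed in both conditions, and 46.3% (43.0 to 49.6%) against 53.2% (51.0 to 55.5%) lay on an untreated YY1 peak. LDB1 peaks in broad regions numbered 2259 and 2249, and CTCF peaks 1354 and 1559.

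**Figure D3:**
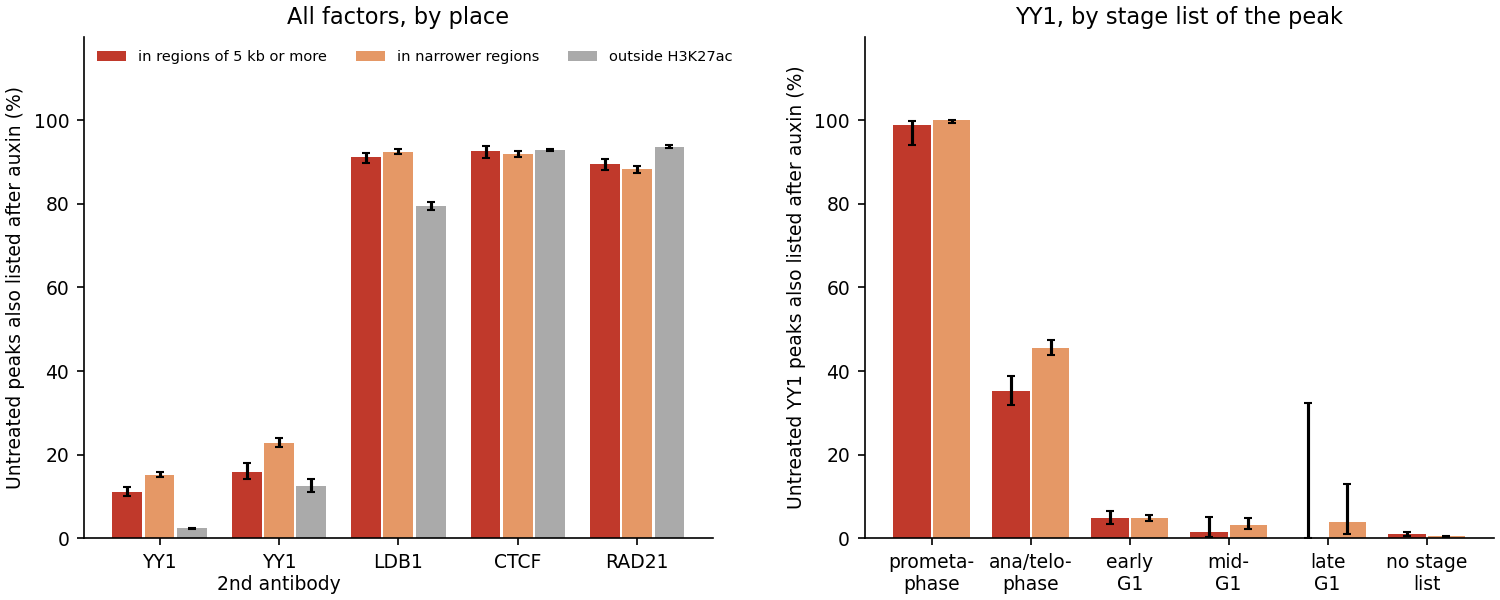
Left, share of untreated peaks also listed after auxin, by factor, in H3K27ac regions of 5 kb or more, in narrower regions and outside. Right, the same share for YY1 peaks in broad (red) and narrower (orange) regions by the stage list they overlap; bars are 95% Wilson intervals, and the share in broad regions falls from 98.9% of prometaphase peaks to 4.71% of early G1 peaks.

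The acetylation itself was listed again in almost all broad regions. The selection used the untreated widths, so the following values describe the regions and no test was made. Of the 1402 broad regions 1400 (99.9%) overlapped an H3K27ac region of auxin-treated cells, against 91.2% of narrower regions. The lower share came from the shortest regions. It was 77.1% under 1000 bp, 99.5% at 1000 to under 2000 bp and 99.96% at 3000 to under 5000 bp. Of the broad regions 1200 were covered to at least 90% and 491 in full, and 95.9% of their bases were covered. Regions of 3000 to under 5000 bp were covered over 93.4% of their bases. The listed region was split into 2 or more pieces in 98 broad regions (6.99%). The 1012 broad regions with no YY1 peak after auxin were covered over 95.8% of their bases and the 390 with a peak over 95.9%, and 6.32% and 8.72% of them were split.

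The widths hardly moved. In 1146 broad regions that matched 1 auxin region and no other, the auxin width was a median of 1.01 times the untreated width (quartiles 0.973 and 1.05), and 59.7% were wider after auxin. Chosen the other way, by an auxin width of at least 5000 bp, 1236 matched regions had a median ratio of 1.03. The auxin list held 1591 regions of 5000 bp or more. An auxin region of that width overlapped 1256 of the 1402 broad regions (89.6%), and 1241 of the 1591 (78.0%) overlapped a broad region. The other 350 each overlapped at least 1 narrower untreated region, the widest at a median of 4150 bp, and 174 of them spanned 2 or more.

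**Figure D4:**
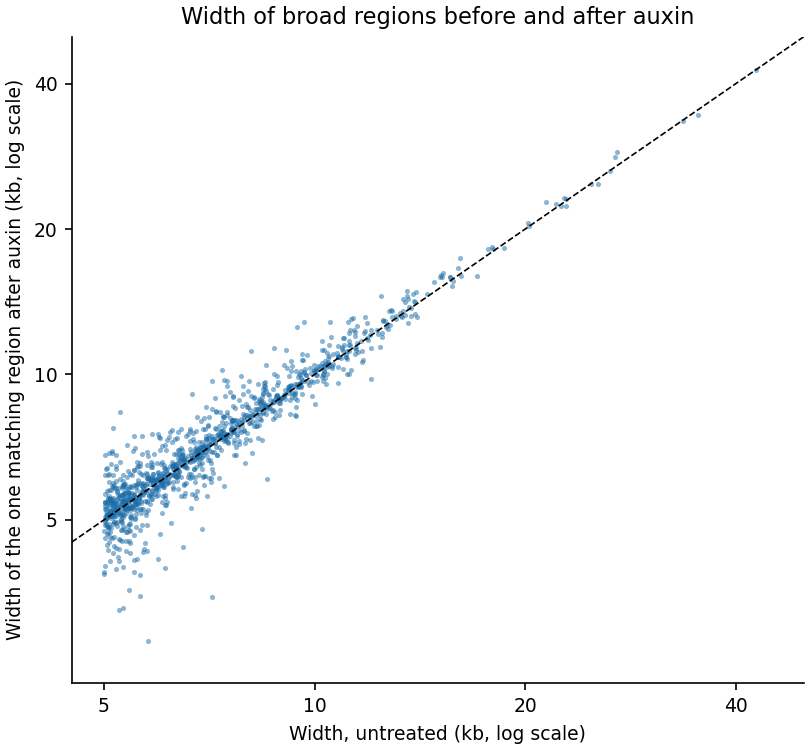
Untreated width (x, kb, log scale) and width of the matching auxin region (y, kb, log scale) of the 1146 broad regions with 1 match, each a point, with equal widths as a dashed line. The points follow the line up to 42.7 kb, and 2 have under 50% of their untreated width.

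The 2 broad regions without any listed acetylation after auxin were named after their values were seen. The first, chr4:46569781-46582558, was 12778 bp wide and held 5 YY1 peaks before and 0 after, 4 LDB1 peaks before and 2 after, and 2 RAD21 peaks before and 3 after. The nearest region of the auxin list lay 5162 bp away. The other, chr7:25168341-25175209, was 6869 bp wide and held 2 YY1 peaks before and 0 after, 2 LDB1 peaks before and after, 1 CTCF peak before and after, and 1 RAD21 peak before and 2 after. Both still had LDB1 and RAD21 peaks after auxin. Of the 5328 untreated regions of at least 2500 bp, 4 had no auxin region, and of 5595 auxin regions of that width 1 had no untreated region. Short regions went off the list more often: 77.1% (76.2 to 78.1%) of the 7754 regions under 1000 bp overlapped an auxin region. With pooled lists there is no replicate check of either region.

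The widest regions kept their acetylated extent as YY1 peaks went. In chr3:137602600-137645279 YY1 went from 13 peaks to 2, LDB1 from 11 to 10, CTCF stayed at 4 and RAD21 went from 11 to 14, and 98.97% of its bases stayed in an auxin region. The next, chr6:17683567-17723729 (40163 bp), had the most YY1 peaks, 14, of which 1 was left, while LDB1 went from 9 to 6, RAD21 from 5 to 9, and the auxin region was wider, at 44913 bp. chr5:97421797-97457130 (35334 bp) was an LDB1-poor case, with 13 YY1 peaks before and 1 after, and 1 LDB1 peak before and 2 after. chr7:142763758-142797370 (33613 bp) went from 11 YY1 peaks to 1 and kept all 9 LDB1 peaks, with RAD21 at 7 and 11. In all 4 the YY1 peaks thinned out along the whole length and the acetylated block stayed.

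**Figure D5:**
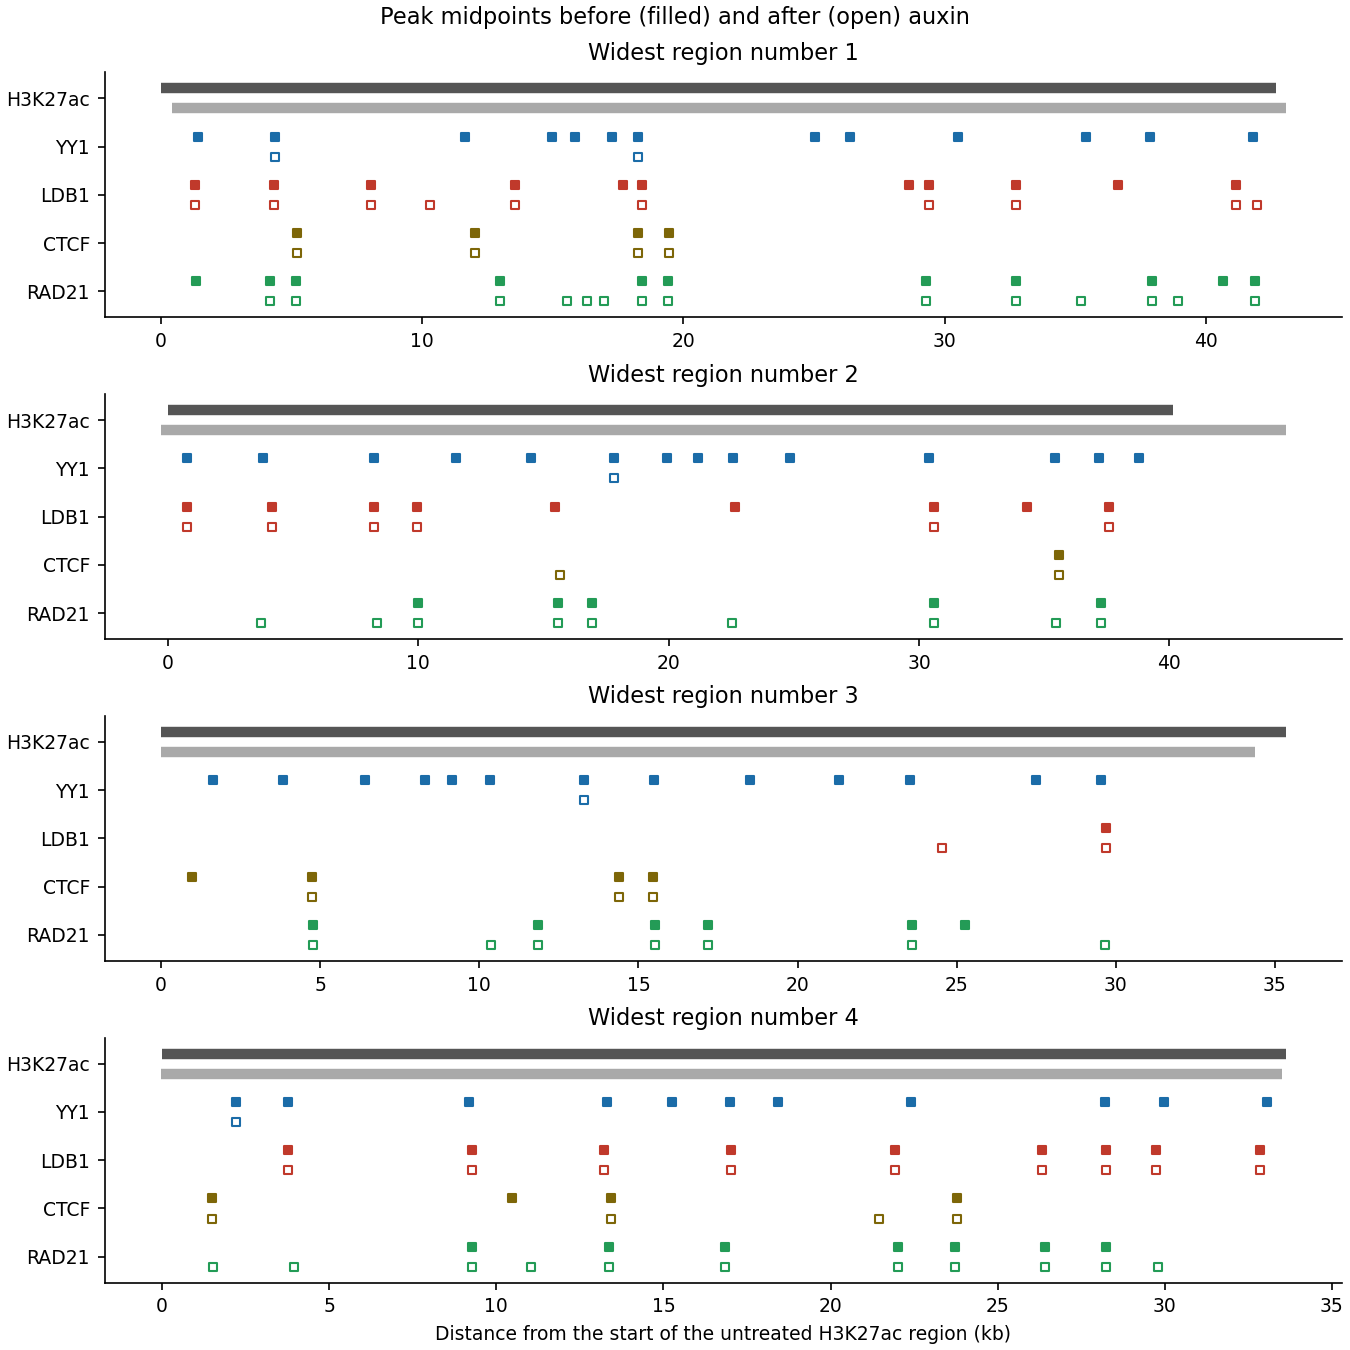
Maps of the 4 widest regions, with the distance from the start of the untreated region in kb: H3K27ac as bars (dark untreated, light after auxin) and factor peak midpoints as squares (filled untreated, open after auxin). YY1 goes from 13, 14, 13 and 11 peaks to 2, 1, 1 and 1 while the H3K27ac bar keeps its extent.

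The 8 regions next in width, from 28783 to 24138 bp, had between 6 and 10 YY1 peaks before auxin. The region chr7:80677911-80706693 went from 6 to 3 YY1 peaks. chr5:144381335-144408179 went from 10 to 0 while RAD21 went from 7 to 13. chr3:14868979-14896154 went from 8 to 0 and was split into 2 pieces that covered 92.0% of it. In chr5:20435641-20462702, chr2:18855816-18882243 and chr19:44355415-44379552 1 YY1 peak was left of 9, 9 and 8. In chr6:56849691-56875115 and chr11:72278403-72303199 none was left of 10 and 9, and LDB1 went from 8 to 8 and from 7 to 6. Among the regions with the most YY1 or LDB1 peaks, chr8:125205536-125228116 (22581 bp) went from 12 YY1 peaks to 0, with LDB1 at 7 and 8, and chr12:78180844-78199490 (18647 bp) from 9 YY1 peaks to 0, with LDB1 at 8 and 8.

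Of the 3702 YY1 peaks of broad regions, 1768 (47.8%) overlapped a site on a stage list of the other subline, against 51.7% of those in narrower and 21.8% of those outside H3K27ac regions. By its name, each stage list holds the sites that appear at that stage. Of its peaks, 13.7% (11.3 to 16.4%) of 681 lay in broad regions in prometaphase and 17.1% (16.1 to 18.1%) of 5713 in ana/telophase. The share was 13.2% (12.5 to 13.8%) of 10643 in early G1, 8.99% (7.91 to 10.2%) of 2403 in mid-G1 and 3.70% (1.96 to 6.89%) of 243 in late G1. Narrower regions held 76.4%, 60.5%, 38.4%, 38.6% and 30.9% in the same order. Lower shares at later stages were thus not particular to broad regions. By the earliest list with a peak in it, 93 broad regions (6.63%) belonged to prometaphase, 653 (46.6%) to ana/telophase, 393 (28.0%) to early G1, 47 to mid-G1, 3 to late G1 and 213 (15.2%) to none. Of the narrower regions 64.1% belonged to none, and a wider region can meet an early site by its length alone.

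The stage at which a site appears went with whether its YY1 peak was listed after auxin. In broad regions 90 of 91 YY1 peaks on a prometaphase site (98.9%, 94.0 to 99.8%) were found again, and 266 of 754 (35.3%, 32.0 to 38.8%) on an ana/telophase site. The share was 37 of 785 (4.71%, 3.44 to 6.43%) on early G1 sites, 2 of 139 (1.44%, 0.395 to 5.09%) on mid-G1 sites and 0 of 8 on late G1 sites, which allows up to 32.4%. Of the 1934 YY1 peaks on no stage list, 19 (0.982%, 0.630 to 1.53%) were found again. Narrower regions had the same order, with 100% (99.3 to 100%) of 517, 45.6% (43.9 to 47.3%) of 3174 and 4.78% (4.06 to 5.61%) of 2930 in the first 3 stages. The stage lists and the main YY1 lists were made with the same antibody.

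YY1 was also listed in broad regions in samples whose title and genotype label conflict on which protein carried the degron. In the samples titled CTCFaid, whose genotype label nevertheless reads YY1-AID, 1245 of the 1402 regions (88.8%, 87.0 to 90.3%) had a YY1 peak untreated and 1314 (93.7%, 92.3 to 94.9%) after auxin. The narrower regions went from 38.8% to 46.1%, and the list as a whole from 16355 to 20074 peaks.

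About every other broad region was at a loop anchor. In the asynchronous Micro-C list 704 (50.2%, 47.6 to 52.8%) overlapped an anchor, and in the mid-G1 list 737 (52.6%, 49.95 to 55.2%). Taken by the midpoint, which does not grow with width, 35.0% (32.6 to 37.6%) of broad regions were at an asynchronous anchor, against 34.0% (32.2 to 35.9%) of regions of 3000 to under 5000 bp and 22.8% (22.3 to 23.4%) of all narrower ones. Of the broad regions 565 (40.3%) were anchored at both stages, 139 in asynchronous cells alone, 172 in mid-G1 alone and 526 (37.5%) in neither. The region with the most loops, chr6:88139221-88157202 (17982 bp), had 11 in asynchronous cells and 7 in mid-G1, and held 7 YY1 peaks before auxin and 1 after.

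Anchored broad regions held more CTCF and cohesin, and no more LDB1. CTCF was found in 71.4% (68.0 to 74.7%) of the 704 anchored and 51.0% (47.3 to 54.7%) of the 698 other broad regions, at 1.45 and 0.974 peaks per 10 kb. RAD21 was found in 86.2% (83.5 to 88.6%) and 73.9% (70.5 to 77.0%), and LDB1 in 78.6% (75.4 to 81.4%) and 82.1% (79.1 to 84.8%). Per 10 kb RAD21 stood at 2.08 in anchored and 1.67 in other broad regions, LDB1 at 1.97 and 2.16, and YY1 at 3.37 in both. The median widths were 7188 and 6485 bp.

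Loops between 2 broad regions were few and short. They numbered 133 of the 12738 asynchronous loops, with a median length of 125 kb, and 134 of the 14155 mid-G1 loops, with a median of 120 kb. YY1 was at both anchors of 91.0% of the 133, LDB1 at both of 42.9%, and CTCF with RAD21 at both of 26.3%. Loops with a broad region at 1 anchor numbered 1000, with a median of 140 kb, and CTCF with RAD21 was at both anchors of 51.0%. At the other anchor of these, 72.3% had a narrower H3K27ac region, and they had YY1 at both anchors in 70.2% and LDB1 in 21.0%. The 4407 loops with narrower H3K27ac regions only, at 1 or both anchors, had a median of 160 kb. Both anchors held YY1 in 44.9%, LDB1 in 7.60% and CTCF with RAD21 in 57.8% of the 4407. These classes differ in how many anchors are acetylated, and 99.5% of broad regions held a YY1 peak and 80.5% an LDB1 peak wherever they lay. The part of both in the shares of loops was not tested. The 7198 loops with no H3K27ac at either anchor had a median of 195 kb and CTCF with RAD21 at both anchors in 57.8%. In mid-G1 the share with CTCF and RAD21 at both anchors was 39.6% for loops between broad regions. The loop lists are merged lists, so loops were not compared between treatments.

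Boundaries of contact domains overlapped 7.63% (6.36 to 9.14%) of broad regions in asynchronous cells and 8.20% (6.88 to 9.76%) in mid-G1, against 5.09% of narrower regions in each. Taken by the midpoint the shares were 4.07% (3.15 to 5.23%) of broad against 4.40% (4.13 to 4.69%) of narrower regions in asynchronous cells, and 4.56% (3.59 to 5.79%) against 4.38% (4.11 to 4.67%) in mid-G1, so the higher overlap of broad regions was not seen with a measure that does not grow with width. The midpoints of 84.7% of broad regions lay in an asynchronous domain listed for both treatments, against 79.6% of narrower regions, and of 72.2% against 68.5% in mid-G1.

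RNA was then examined for a fixed list of 60 genes that write, erase or read acetylation, oppose it at H3K27, or specify erythroid and progenitor cells, of which 59 were measured. The list is not derived from the regions. TT-seq, which labels newly made RNA, compared 3 untreated with 3 auxin libraries of 30229935 to 53453617 counts, and RNA-seq compared 3 libraries each at 4, 24 and 48 h with the same 3 untreated ones, at 25093000 to 26210181 counts. The labels do not say whether replicates are separate cultures, so p-values measure the spread between these libraries, which may be technical. Erythroid markers summed to 603 to 849 CPM (counts scaled to a common library total) in untreated and 514 to 756 in auxin TT-seq libraries. The globin genes Hba-a1, Hbb-b1 and Hbb-bt were listed at 0 in all 6, for a reason that was not tested. In RNA-seq 10 of the 11 erythroid markers were listed, and none of them was at 0 in all libraries. Their sums were 1598 to 1645 CPM untreated and 1377 to 1940 after auxin. Myeloid markers summed to 15.6 to 26.5 and mast cell markers to 31.6 to 40.2 over both TT-seq groups.

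The TT-seq fit with the replicate number as a block, given below, called 32 list genes lower and 4 higher, with 25.3% and 22.7% of all genes. In the fit without a replicate term, newly made RNA of 10 list genes fell at 4 h of auxin and none rose. This was the edgeR quasi-likelihood test, with Benjamini-Hochberg adjusted p under 0.05 over 11218 genes. Over all genes 7.09% were called lower and 2.11% higher, and at an unadjusted p under 0.05 the list had 16 lower and 1 higher genes. DESeq2 also called 10 list genes lower and 0 higher. The median log2 change of the list was −0.11, against 0.02 for all genes. Of the 10 genes, Crebbp encodes the acetyltransferase CBP, Hdac1 a deacetylase, Ncor1 a corepressor and Brd2 an acetyl-lysine reader. Ccnt1 and Ccnt2 encode cyclins of the elongation factor P-TEFb, and Med13 is a Mediator kinase module gene. The others were the enhancer methyltransferase gene Kmt2c, the H3K27 demethylase gene Kdm6a, and Gata2, a progenitor transcription factor.

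Crebbp stood at 7.89, 8.01 and 7.96 on the log2 CPM scale in untreated and at 7.22, 7.29 and 7.23 in auxin libraries. The groups did not overlap, and its log2 change was −0.71 (SE 0.08, edgeR adjusted p 0.0012). Ep300, which encodes the related acetyltransferase p300, stood at 7.62, 7.74 and 7.54 untreated and 7.47, 7.54 and 7.31 after auxin, lower in each of the 3 pairs. Its log2 change was −0.19 (SE 0.09, edgeR adjusted p 0.253), which did not pass without the pairing, and −0.20 (SE 0.04, edgeR adjusted p 3.08e-06) with the replicate number as a block, which did. Med13 stood at 8.09, 8.23 and 8.07 untreated and 7.20, 7.45 and 7.18 after auxin, the lowest log2 change of the list at −0.85 (SE 0.10, edgeR adjusted p 0.00191). The log2 changes of the other 8 genes ran from −0.30 for Ccnt1 to −0.61 for Kdm6a. Leaving out replicate 3 of either group left 6 of the 10, without Ncor1, Brd2, Ccnt1 and Gata2.

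Libraries of the same number deviated together in TT-seq. With the replicate number as a block, 32 list genes were lower and 4 higher, where 25.3% and 22.7% of all genes were called. The 4 were Hdac3, Kdm6b, Ezh2 and Klf1. With library sizes from the Drosophila spike-in 0 list genes were lower and 0 higher, where 0% and 0.00878% of all genes were called, and with the spike-in and the block 26 were lower and 0 higher, where 21.2% and 9.82% were. The direction of the 10 genes was the same in each of these.

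In RNA-seq at 4 h 7 list genes fell and none rose, where 4.14% of 15157 genes were called lower and 3.14% higher by the same edgeR test, and at an unadjusted p under 0.05 the list had 14 lower and 5 higher genes. DESeq2 called 12 lower and 1 higher. They were Brd2 (log2 change −0.52), Med13 (−0.69), Ccnt2 (−0.38), Kmt2c (−0.46), Kdm6a (−0.36), Chd4 (−0.29), the remodeller ATPase of the NuRD deacetylase complex, and Kdm1a (−0.27), an H3K4 demethylase. Brd2 stood at 8.32, 8.24 and 8.16 log2 CPM untreated and 7.74, 7.71 and 7.73 at 4 h, with no overlap. The calls of Kmt2c and Kdm6a were each lost in 3 of 10 alternative fits, all of them fits without 1 library. Crebbp changed by −0.26 (SE 0.14, edgeR adjusted p 0.29) and did not pass.

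At 24 h 26 list genes were lower and 6 higher, where 21.5% of all genes were called in each direction, and at 48 h 21 were lower and 10 higher, where 24.6% and 24.9% were. Ikzf1, a zinc finger regulator of lymphoid and erythroid cells, had the lowest log2 change at both times, −1.12 (SE 0.07) and −1.02 (SE 0.07), and stood at 8.48, 8.55 and 8.37 untreated and 7.28, 7.42 and 7.34 at 24 h. Myc, the growth regulator, fell by 0.91 and 0.96 on the log2 scale. The progenitor gene Gata2 fell by 0.86 and 0.51, Lmo2, the bridge between TAL1 and LDB1, by 0.66 and 0.46, Hdac1 by 0.58 and 0.89, Brd2 by 0.66 and 0.47, Med13 by 0.57 and 0.45, the erythroid activator Klf1 by 0.34 and 0.36, and Mta1 by 0.32 and 0.34. The corepressor gene Cbfa2t3 fell by 0.56 at 24 h, Ncor1 by 0.32 at 24 h and the proliferation factor Myb by 0.58 at 48 h.

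Ezh2, the H3K27 methyltransferase, rose by 0.29 at 24 h. At 48 h Fli1, a megakaryocytic factor, rose by 0.69 and Tal1 by 0.36. Megakaryocyte markers summed to 36.1 to 49.0 CPM in untreated and 40.3 to 266 in auxin RNA-seq libraries, and their part in these changes was not tested. Ldb1 itself fell by 0.23 at 24 h and 0.34 at 48 h, and at 4 h changed by −0.06 (edgeR adjusted p 0.72). The 24 h call of Ldb1 was lost in 3 of 10 alternative fits, all of them fits without 1 library. Crebbp and Ep300 did not pass at either time. The 3 times share their untreated libraries.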

How the data were processed

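Per the submitters' processing notes, Bowtie2, MACS2 2.2.7 and deepTools 3.5.1 were used for ChIP-seq and Micro-C on mm9, Salmon 0.13.1 and DESeq2 for RNA-seq, and Trim Galore 0.6.10, STAR and SAMtools for TT-seq. The sources used here state neither the peak thresholds and the joining of H3K27ac regions nor the loop and domain callers. The deposited peak, loop and domain lists give positions without a score. The authors deposited TT-seq counts per gene, and RNA-seq estimated counts as whole numbers. Lines that name no gene, 17.7% to 22.6% of a TT-seq library, were left out.

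Peaks were placed in a region by their midpoint for numbers, densities and stage lists, and by at least 1 bp of overlap for shares of regions with a peak. A peak was found again where an auxin peak overlapped it. In the widest regions, peaks listed in both conditions had the same midpoint to the base pair, as did all 9 LDB1 peaks of chr7:142763758-142797370. The lists of a factor may thus draw on a shared set of peaks, which the sources used here do not state. Found again therefore means listed in both conditions, not an independent second call. Counts were tested in edgeR 4.0.16 (R 4.3.3; TMM, filterByExpr, quasi-likelihood, adjusted p threshold 0.05), with all 12 time-series libraries in 1 fit, without a replicate term. Log2 CPM used a prior count of 2. Overlap and count scripts were tested on simulated data. The named regions were the 12 widest and the 6 with most YY1 or LDB1 peaks, and the named genes those past the threshold, up to 12 by smallest p; others were chosen after their values were seen. In TT-seq the deviations of libraries of the same number correlated at 0.53, 0.64 and 0.39, and of different numbers at −0.08 or lower, so the numbers were taken as pairs. The first TT-seq fit has no replicate term, and the fit with the pairs as a block is given beside it. The members and lists were chosen with earlier results of these data known. With no mm9 annotation used here, regions were not assigned to genes and their sequences were not read.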

Additional observations from a re-analysis of the deposited data

How the results depend on the processing

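The lists limit these results: they pool libraries, carry no score and end at thresholds that are not given, so a site can leave a list without leaving the genome. Shares of broad regions with a factor followed the width chosen. At 4000 bp or more (2235 regions) they were 98.8% for YY1, 64.7% for the other YY1 antibody, 74.3% for LDB1, 58.9% for CTCF and 76.6% for RAD21, and at 8000 bp or more (454 regions) 100%, 78.9%, 92.3%, 75.1% and 91.0%. In the central 200 bp they were 19.8%, 8.13%, 11.8%, 6.92% and 11.0%. No 2 regions lie within 1000 bp, so joining at 1000 bp changed nothing, and joining at 3000 bp, tried after seeing the data, gave 2457 regions. YY1 was found again at 12.5% of sites with a width of at least 4000 bp and 9.52% with at least 8000 bp, and with the other antibody at 14.1% with at least 8000 bp. Asynchronous anchors met 61.2% of regions of at least 8000 bp and 60.6% with anchors widened by 5000 bp, and mid-G1 anchors 49.7% at 4000 bp, 62.3% at 8000 bp and 62.3% when widened. The other 35 of 61 region values tried stayed within the counting interval of the reported value, or within 1.5 times it for counts. Some of these gave no check. Joining at 1000 bp, and asking for at least 50% of an untreated peak to be found again, returned exactly the main counts for every antibody.

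In TT-seq the replicate block gave 32 list genes lower and 4 higher, spike-in library sizes 0 lower, and both together 26 lower. Leaving out 1 library gave 6 to 9 lower and 0 higher. In RNA-seq at 4 h DESeq2 gave 12 lower and 1 higher, no filter 1 higher, and the replicate block 11 lower and 1 higher, and leaving out 1 library 5 to 8 lower. At 24 h no filter gave 3 higher, and leaving out 1 library 3 to 5 higher, with 3 without untreated replicate 3 or without 24 h replicate 1. Of the called list genes in RNA-seq, 2 of 7 at 4 h, 11 of 32 at 24 h and 4 of 31 at 48 h were lost on leaving out some single library. Same-numbered RNA-seq libraries at 4 h correlated at 0.13, 0.08 and 0.14 and those of different numbers at −0.02 to −0.12, weaker than in TT-seq. They were not taken as pairs, and the block is an alternative only. No called list gene reversed direction. Results at genes of the broad regions, transcription starts within 2000 bp and the sequence of the regions were not run.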
